A study of Mus musculus with 16 samples.

Results

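Telo2, Tmem175, and Crls1 are 3 genes whose transcripts were counted in different proportions in the skeletal muscle of control mice and of mice fed a high-fat diet (HFD). They were selected on the measured transcript shares of these mice, because single transcripts stood at or near 0 counts in one group and not in the other, so the shares below are a description and were not tested. All rows of the mRNA table with these gene names were taken, which gave 21 transcripts, 10 of Telo2, 6 of Tmem175, and 5 of Crls1, out of 82388 transcripts of 23235 genes. The share of a transcript is its count divided by the summed count of all transcripts of its gene in the same mouse, in percent.

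The muscle RNA came from 16 male C57BL/6J mice in 4 groups of 4, each mouse giving 1 library. Mice were bought at 6 weeks of age. The control group received a normal diet, the HFD group a diet with 60% fat, whose intake for 8 weeks preceded the treatments, and the HFD + RSV and HFD + metformin groups were fed the same diet and then treated for 6 weeks with resveratrol (spelled reveratrol in the group label) or metformin. The questions were what HFD feeding changed and whether resveratrol or metformin moved it back. The labels of all 4 HFD mice begin with the number 7, which no mouse of another group carries. Its meaning is not given, and an effect of what it stands for and an effect of the diet cannot be told apart. According to the study's methods, part of the mice of its control, HFD, and HFD + RSV groups received insulin before the muscle was taken. Whether the sequenced mice did, those with metformin included, is not given.

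Telo2 encodes a protein that, with Tti1 and Tti2, forms a complex that helps to fold and stabilize the phosphatidylinositol 3-kinase-related kinases, among them mTOR and the DNA damage kinases, together with Hsp90 and the Ruvbl1 and Ruvbl2 ATPases. Tmem175 encodes an ion channel of the lysosomal membrane, known for conducting potassium and protons and for its part in lysosomal pH. Crls1 encodes cardiolipin synthase, which makes cardiolipin, the lipid of the inner mitochondrial membrane, from phosphatidylglycerol and CDP-diacylglycerol, and cardiolipin is abundant in cells rich in mitochondria such as muscle fibers and brown adipocytes. One gene can give several transcripts through other start sites, splice sites, and ends. Those with the same coding exons give the same protein, and those with an early stop codon can be degraded by nonsense-mediated decay.

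All 21 transcripts have the coordinates and lengths of GENCODE M21 on GRCm38. Telo2 (ENSMUSG00000024170) lies at chr17:25099570-25115967 on the minus strand. Telo2-201 (ENSMUST00000024987) and Telo2-202 (ENSMUST00000115181) have the same coding exons of 2520 bases, and all 3434 exonic bases of Telo2-201 are also in Telo2-202. Telo2-202 has 96 further bases, since it starts 62 bases upstream, its noncoding first exon runs 27 bases further at the splice donor, and its 3′ end is 7 bases longer. Besides these bases, the splice junctions from the first to the second exon tell these 2 apart. The junction of Telo2-202, with the 27 bases before it, is also part of Telo2-203 and Telo2-209. The junctions are shown with the first 15 bases of the second exon in capitals.
Telo2-201: agcgtgagtgagattCCCTGTTCTGCAGGA
Telo2-202: cctggaagcgcagaaCCCTGTTCTGCAGGA

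Tmem175 (ENSMUSG00000013495) lies at chr5:108629770-108648782 on the plus strand. Tmem175-201 (ENSMUST00000063272), Tmem175-202 (ENSMUST00000078323), and Tmem175-203 (ENSMUST00000120327) share the same coding exons of 1497 bases. Tmem175-202 starts 170 bases downstream of Tmem175-201 and joins the second exon at an acceptor 36 bases further on. The last exon of Tmem175-201 runs 1519 bases beyond that of Tmem175-202, and all 1519 bases lie within exons of Dgkq, a diacylglycerol kinase gene on the opposite strand. Tmem175-203 has the first-exon donor of Tmem175-202, the acceptor of Tmem175-201, and a 3′ end 592 bases before that of Tmem175-202. The junctions of the first and second exons are shown, with the second exon in capitals, because they differ among these 3 transcripts. The junction of Tmem175-201 is also part of Tmem175-204.
Tmem175-201: ctaggaggcacggagCACTTGTCTCTGCAT
Tmem175-202: gcctgacgcctcaagGGTTGAGACATCCCT
Tmem175-203: gcctgacgcctcaagCACTTGTCTCTGCAT

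Crls1 (ENSMUSG00000027357) lies at chr2:132846666-132866785 on the plus strand. Crls1-201 (ENSMUST00000028835) has 909 coding bases. Crls1-203 (ENSMUST00000124834) lacks exon 3, of 130 bases at chr2:132854893-132855022, and is annotated as a target of nonsense-mediated decay with 462 coding bases. Since 130 leaves a remainder of 1 after division by 3, the reading frame shifts where the exon is absent. All 1772 exonic bases of Crls1-203 are also in Crls1-201, so of the pair only Crls1-203 holds the junction that skips exon 3. Crls1-204 (ENSMUST00000124836) begins 1068 bases downstream with another first exon and has 564 coding bases. The junctions that each of them uses follow, with the exon that is joined in capitals. The one shown for Crls1-201 is also part of Crls1-204 and Crls1-205.
Crls1-201: gggctaacggatttgTTGGATGGATTTATT
Crls1-203: gggctaacggatttgTCCCACTCACTTACA
Crls1-204: agcacagttggccgaTATGAAAATCCATGG
The third exon itself is shown in capitals between the 15 bases that flank it in Crls1-201, which are joined directly in Crls1-203.
Crls1-201 exon 3: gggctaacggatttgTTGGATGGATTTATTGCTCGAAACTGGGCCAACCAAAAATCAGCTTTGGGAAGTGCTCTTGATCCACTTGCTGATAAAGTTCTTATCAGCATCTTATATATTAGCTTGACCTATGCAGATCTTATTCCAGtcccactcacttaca

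**Figure D1:**
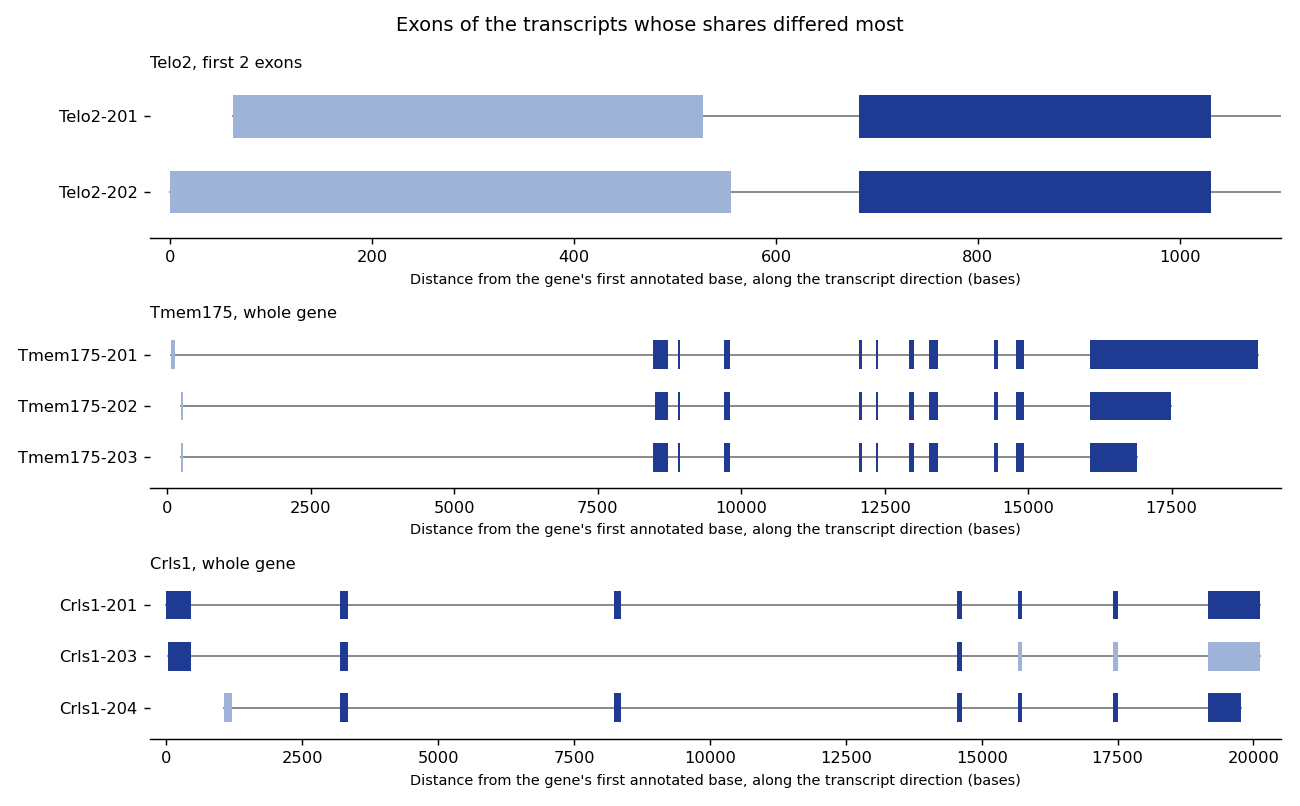
Exons of the compared transcripts against the distance in bases from the first annotated base of the gene, with exons that hold any coding base in dark blue and wholly noncoding exons in light blue. The Telo2 panel shows only the first 2 exons, where the donors are 27 bases apart, the Tmem175 panel shows the 3 lengths of the last exon, and the Crls1 panel shows the third exon missing from Crls1-203.

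The libraries held 20281801 to 34021101 counts over the mRNA and lncRNA tables. Summed counts per mouse were 161 to 279 for Telo2, 182 to 306 for Tmem175, and 180 to 1166 for Crls1, so a share of a few percent rests on a handful of counts. Per length, the group means of the summed FPKM lay between 4.03 and 4.09 for Telo2, between 4.56 and 5.07 for Tmem175, and between 5.64 and 14.8 for Crls1. Skeletal muscle genes were high in every library, with 10 of 10 markers summing to 197100 to 294900 counts per 1000000 (CPM). A protocol field of the labels names retinas, but 3 of 8 retina markers were at 0 throughout, 7 were under 1 CPM in every mouse, and the 8 summed to at most 1.69 CPM. The counts are estimates that divide reads among overlapping transcripts of a gene, so a 0 says that no reads were assigned to that transcript and not that the RNA was absent.

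Telo2-201 and Telo2-202 differed in opposite directions between the control and HFD groups. Telo2-201 was at 0 counts in all 4 control mice, whose summed Telo2 counts allow a share of up to 1.103% to 1.863% by counting error alone. In the HFD mice it was counted 81, 112, 100, and 77 times, and its share was 35.6% ± 3.35 (SD, n = 4). The groups did not overlap.

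Telo2-202 ran the other way, with 34, 95, 33, and 31 counts in the control mice and 8, 1, 1, and 1 in the HFD mice. Its share was 21.4% ± 9.58 (SD, n = 4) in the control group and 1.09% ± 1.41 in the HFD group. Telo2-203, which holds the same junction of the first and second exons, had 23 to 54 counts in the control mice and 30 to 46 in the HFD mice. Of the 16 mice, 8 had over 3 counts of Telo2-201 alone, 7 of Telo2-202 alone, and 1, HFD mouse 1, of both.

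The treated groups held both patterns. In the HFD + RSV mice, Telo2-201 was counted 45, 100, 0, and 55 times and Telo2-202 0, 1, 39, and 2 times. In the HFD + metformin mice, Telo2-201 was counted 0, 98, 118, and 0 times and Telo2-202 58, 1, 1, and 41 times. The mean share of Telo2-201 was 21.2% ± 17.6 (SD, n = 4) with RSV and 20.9% ± 24.4 with metformin. Both groups overlapped the control and the HFD group.

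The other Telo2 transcripts were more even. The retained-intron transcripts, which have no annotated coding sequence, took the larger part of the Telo2 counts, since Telo2-203, Telo2-207, Telo2-209, and Telo2-211 together held 73.9% ± 9.04 (SD, n = 4) in the control, 60.8% ± 1.94 in the HFD, 70.3% ± 12.7 in the HFD + RSV, and 63.4% ± 10.5 in the HFD + metformin group. Telo2-211 alone had a mean share of 33.9%, 33.0%, 32.7%, and 34.4% in that order. Telo2-203 lay between 14.1% and 17.4% and Telo2-207 between 6.08% and 7.40% as group means.

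Telo2-209, an intron-retaining transcript that spans most of the gene, was the exception. It was counted 22, 29, 37, and 42 times in the control mice and 20, 24, 6, and 15 times in the HFD mice. Its share was 15.3% ± 4.64 (SD, n = 4) and 6.35% ± 2.91, without overlap. With RSV the counts were 68, 3, 55, and 16, which covers the range of both groups. Telo2-204, Telo2-205, Telo2-208, and Telo2-210 had mean shares of 1.14%, 1.19%, 1.24%, and 0.316% over the 16 mice.

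Telo2-201 and Telo2-202 encode the same protein. Together they held 21.4% ± 9.58 (SD, n = 4) of the Telo2 counts in the control group and 36.7% ± 2.7 in the HFD group. The control mice lay at 13.5% to 34.9% and the HFD mice at 34.2% to 40.5%, which overlap. The sum of the pair was thus not the same in the 2 groups. With RSV the pair held 15.98% to 42.6% and with metformin 15.4% to 46.9%.

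Tmem175-202 was at 0 counts in all 4 HFD mice, which allows a share of up to 1.18% to 1.28% by counting error alone. The control mice had 81, 78, 94, and 55 counts, a share of 33.3% ± 7.40 (SD, n = 4). Tmem175-201, the transcript with the long last exon, was counted 32, 36, 27, and 28 times in the control mice and 130, 103, 116, and 88 times in the HFD mice. Its share was 13.6% ± 3.47 in the control and 44.0% ± 6.14 in the HFD group, and neither transcript overlapped between the groups.

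In the treated mice the patterns again stood side by side. Tmem175-202 had 78, 0, 0, and 59 counts with RSV and 47, 0, 74, and 0 with metformin. Tmem175-201 had 37, 96, 105, and 20 counts with RSV and 32, 135, 26, and 161 with metformin. Over all 16 mice, the 8 with no Tmem175-202 had 88 to 161 counts of Tmem175-201, and the 8 others had 20 to 37.

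The transcripts that encode the full Tmem175 protein held about the same part of the counts in each group. Tmem175-201, Tmem175-202, and Tmem175-203, which share their coding exons, together held 82.1% ± 3.55 (SD, n = 4) of the counts in the control, 81.8% ± 2.07 in the HFD, 81.2% ± 3.72 in the HFD + RSV, and 81.1% ± 2.83 in the HFD + metformin group. Tmem175-203 had mean shares of 35.1%, 37.9%, 41.0%, and 36.1% in that order, with overlapping groups. Tmem175-204, with a shorter coding sequence, had 8.57%, 6.84%, 8.88%, and 9.73%. Tmem175-205, without a coding sequence, lay between 5.10% and 6.17% and Tmem175-206 between 3.64% and 5.16% as group means.

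The last exons of Tmem175-201 and Tmem175-202 both run into the span of Dgkq, which starts at chr5:108646693. Tmem175-202 ends at chr5:108647263, and Tmem175-203 ends before Dgkq, at chr5:108646671. The library kit named in the labels does not mark strand, so reads in the overlap cannot be told apart by gene. Summed Dgkq counts were 185 to 312 in the control and 192 to 225 in the HFD mice. The difference, a log2 fold change (log2FC) of -0.22 (SE 0.118), had an adjusted p = 0.274 in edgeR. The part of Dgkq reads in the Tmem175-201 and Tmem175-202 counts was not tested. Per length, the share of Tmem175-201 in the summed FPKM was 6.38% in the control group and 21.9% in the HFD group.

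Crls1-203, without the third exon, was at 0 counts in all 4 HFD mice, which allows a share of up to 0.896% to 1.67% by counting error alone. It was counted 77, 111, 306, and 50 times in the control mice, a share of 19.1% ± 6.02 (SD, n = 4). With RSV it was counted 0, 95, 75, and 0 times and with metformin 0, 0, 41, and 80 times. The shares of the control mice were 13.9% to 26.2%. Of the 4 treated mice with a count, 3 lay within this range and HFD + metformin mouse 3, at 8.74%, lay below it.

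By counts, Crls1-201, the full coding transcript, led in every mouse. It was counted 150, 653, 714, and 305 times in the control mice and 300, 305, 327, and 154 times in the HFD mice. Its share was 68.1% ± 20.3 (SD, n = 4) in the control and 94.4% ± 5.92 in the HFD group, without overlap. As shares of the summed FPKM the groups overlapped, at 34.6% to 81.3% in the control and 71.3% to 94.95% in the HFD mice. With RSV the share of counts was 80.0% ± 21.7 and with metformin 82.8% ± 10.4, and both groups overlapped the control and HFD groups. Per length, Crls1-204 led in control mouse 1, with 41.7% of the summed FPKM beside 34.6% for Crls1-201.

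Crls1-204, with the downstream first exon, was counted 119, 0, 76, and 0 times in the control mice and 0, 0, 0, and 7 times in the HFD mice. With RSV it was counted 0, 73, 35, and 0 times and with metformin 57, 0, 18, and 0 times. It was thus present in some mice of each group and its groups overlapped. Crls1-202 and Crls1-205 had mean shares of 1.39% and 1.58% over the 16 mice.

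**Figure D2:**
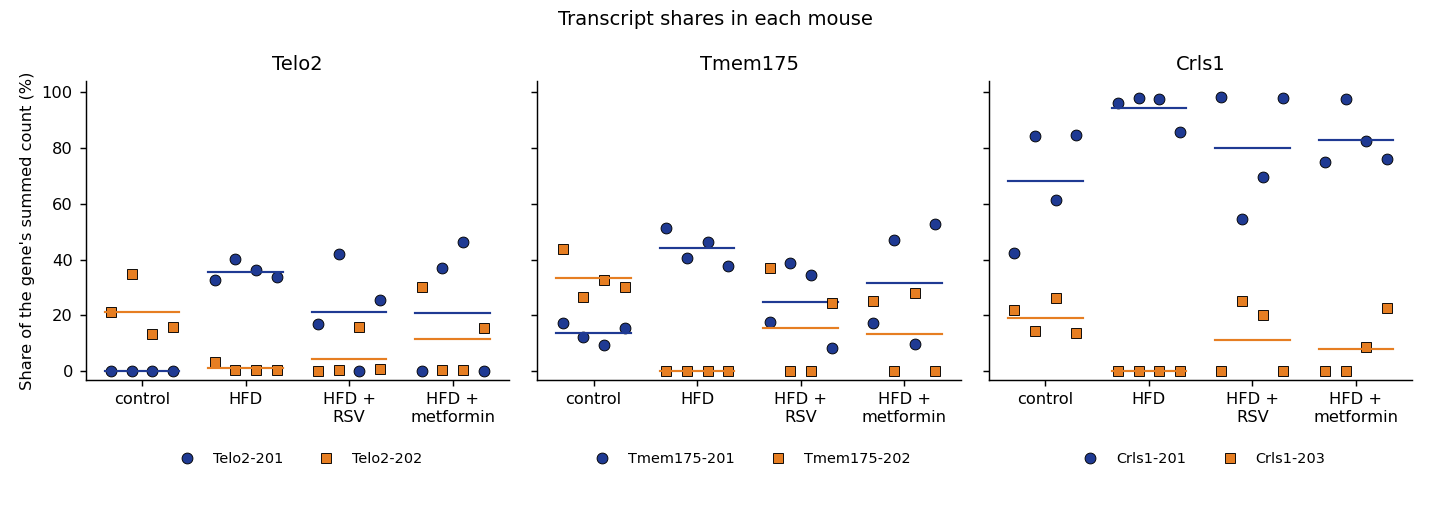
Share of the summed count of the gene, in percent, for the pair of transcripts of each gene shown in each of the 16 mice, with points ordered by mouse number within a group and lines at the group means. Telo2-201 is at 0 in all 4 control mice, Tmem175-202 and Crls1-203 are at 0 in all 4 HFD mice, and the treated groups hold mice at 0 and mice above 0 for each.

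Of 45196 transcripts compared for shares, which are those of genes with at least 2 transcripts and 20 summed counts in every mouse and with a mean share of at least 1%, 2417 or 5.35% had shares that did not overlap between the HFD and control groups. Among the 20 member transcripts in this set 7 did so, which is how the genes were found and is no finding. They are Telo2-201, Telo2-202, Telo2-209, Tmem175-201, Tmem175-202, Crls1-201, and Crls1-203. With a difference of at least 25 points as well, 4 of them remained, Telo2-201, Tmem175-201, Tmem175-202, and Crls1-201, beside 0.243% of the set. Over the whole set, 0.372% of transcripts had a larger absolute difference of mean share than Telo2-201, 0.487% than Tmem175-202, 1.13% than Crls1-201, and 2.89% than Crls1-203.

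A transcript at 3 counts or fewer in every mouse of one group and at 10% or more in every mouse of the other was rare between groups. HFD against control had 8 such transcripts, 0.0177% of the set, and they include Telo2-201, Tmem175-202, and Crls1-203. The genes were chosen for this pattern, so their place among the 8 is no finding. The remaining 5 are Acaca-201, Ppara-201, Zfp961-206, Nmral1-206, and AI413582-203, of which Nmral1-206 and AI413582-203 had at most 11 counts in any of these mice. The shares of Nmral1-206 overlapped, at 2.5% to 13.0% in the control and 10.3% to 18.0% in the HFD mice. None of the members met this limit in another comparison. There, 0.0155% of the set did in HFD + RSV against HFD and in HFD + RSV against HFD + metformin, 0.0177% in HFD + metformin against HFD, 0.00885% in HFD + RSV against control, and 0.0133% in HFD + metformin against control.

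Such swings were common between single mice of one group. A transcript at 3 counts or fewer in one mouse and at 10% or more in another was found for 9.26% of the set within the control group, 9.14% within the HFD group, 9.48% within HFD + RSV, and 8.94% within HFD + metformin. Over the 16 mice the figure was 20.2%. These counts and their limits were chosen after the data were seen.

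**Figure D3:**
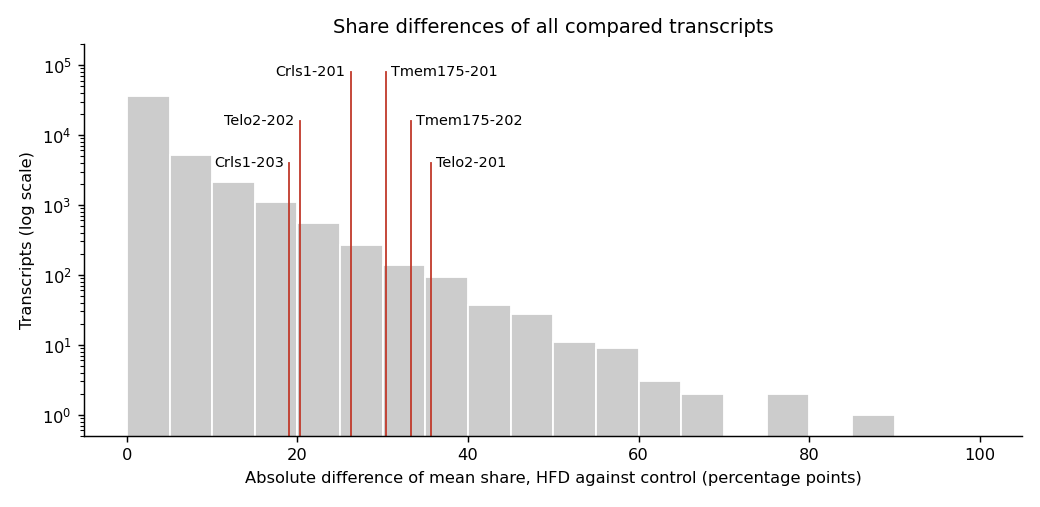
Number of transcripts, on a log scale, by the absolute difference of mean share between the HFD and control groups in percentage points, for the 45196 compared transcripts in bins of 5 points. Red lines mark 6 transcripts of the 3 genes, from 19.1 points for Crls1-203 to 35.6 points for Telo2-201, and 95% of all transcripts lie below 14.97 points.

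None of the 20 member transcripts separated the HFD + RSV mice from the HFD mice, where 3.01% of the set did. HFD + metformin against HFD separated 1, Tmem175-204 (3.14% of the set). No member separated a treated group from the control group, where 3.98% of the set did with RSV and 3.27% with metformin, or HFD + RSV from HFD + metformin (2.79%). With 25 points as well, none did in these 5 comparisons, where the set gave 0.208% for HFD + RSV against HFD, 0.226% for HFD + metformin against HFD, 0.219% and 0.201% for RSV and metformin against control, and 0.21% between the treatments. These comparisons share their HFD or control mice. Between HFD + RSV and HFD, the mean share was lower by 14.4 points for Telo2-201 (35.6% in HFD, 21.2% in HFD + RSV), and Crls1-203 rested on 2 of 4 mice above 0.

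Mice whose labels share the leading number all had counts of some transcripts and differed in having counts of others. HFD + metformin mice 3 and 4, both with the number 8, had 118 and 0 counts of Telo2-201 and 74 and 0 of Tmem175-202. HFD + RSV mice 1 and 2, both with the number 1, had 78 and 0 counts of Tmem175-202 and 0 and 95 of Crls1-203. Both mice of the first pair had counts of Crls1-203, 41 and 80, at shares of 8.74% and 22.5%. Both mice of the second pair had counts of Telo2-201, 45 and 100, at shares of 17.0% and 42.2%. Control mice 1, 2, and 3, all with the number 1, had no Telo2-201 count and had counts of Tmem175-202 and Crls1-203. The HFD mice, all with the number 7, had the reverse. A relation of the number to the shares was not tested.

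The summed counts ask whether the genes as a whole were higher or lower, and they were tested with edgeR over 15364 genes, although a sum holds the same transcripts that chose the genes. HFD against control called 374 genes (2.43%) at an adjusted p under 0.05, 203 higher and 171 lower in HFD (1.11% of all genes tested lower). With libraries scaled by total count instead of TMM, the calls were 91 higher and 122 lower and the median log2FC of all genes was -0.17 in place of -0.02. Of the 3 genes, Crls1 was called lower. In HFD + metformin against HFD 0.013% of genes were called (0.00651% in each direction) and in HFD + RSV against control 0.00651%, all higher with RSV, and none of the 3 genes was among them. By an unadjusted p under 0.05 with an absolute log2FC above 1, Crls1 in HFD against control was again the 1 call, where 4.94% of genes met this limit. The corresponding share was 1.08% in HFD + RSV against HFD, 1.76% in HFD + metformin against HFD, 2.72% and 1.63% for RSV and metformin against control, and 0.97% between the treatments.

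Crls1 fell in the HFD group. The CPM of the summed counts were 19.8, 24.9, 45.6, and 18.8 in the control mice and 13.5, 12.9, 14.8, and 8.27 in the HFD mice, so every control mouse lay above every HFD mouse. The means were 27.3 ± 12.5 and 12.4 ± 2.85 (SD, n = 4), and the log2FC was -1.14 (SE 0.264, edgeR adjusted p = 0.0438, exact two-sided permutation p = 0.0286, the smallest that 4 against 4 allows). The call was lost without control mouse 3, where the log2FC was -0.78 (adjusted p = 0.119). It was also lost without control mouse 2, any one of the HFD or HFD + RSV mice, or HFD + metformin mouse 1, in all in 11 of 16 refits with adjusted p-values of 0.0527 to 0.119, and without a filter on low counts (-1.13, adjusted p = 0.0582).

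With RSV, the Crls1 CPM were 12.8, 16.3, 16.6, and 12.3, and with metformin 14.4, 13.6, 19.8, and 12.8. The group means of 14.5 ± 2.23 and 15.1 ± 3.19 (SD, n = 4) lay between the control and HFD means. HFD + RSV against HFD gave a log2FC of 0.23 (SE 0.263) and HFD + metformin against HFD 0.29 (SE 0.263), with edgeR adjusted p-values of 0.9995 and 0.764. HFD + RSV against control gave -0.91 (SE 0.263, edgeR adjusted p = 0.166), which DESeq2 called at an adjusted p = 0.0371. All 4 HFD + RSV mice lay below all 4 control mice (exact two-sided permutation p = 0.0286). HFD + metformin against control gave -0.85 (SE 0.262, edgeR adjusted p = 0.297). The order of the means was control, HFD + metformin, HFD + RSV, and HFD, and the last 3 groups overlapped each other.

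Genes of brown adipocytes were higher in the control group, as the Crls1 sum was. Ucp1, Cidea, and Elovl3 summed to 52.1, 120, 869, and 26.8 CPM in the control mice and to 1.19, 1.23, 1.31, and 3.57 CPM in the HFD mice, with 3 of 3 higher in the control group and none at 0 throughout. Control mouse 3 had the highest Crls1 sum and the highest brown adipocyte sum. With RSV the brown adipocyte sum was 2.05 to 22.3 CPM and with metformin 1.22 to 205 CPM, and in both groups mouse 3 had the highest value and the highest Crls1 sum. This order did not hold throughout, since HFD mouse 4 had the highest brown adipocyte sum and the lowest Crls1 sum of its group, and HFD + RSV mouse 2 the lowest brown adipocyte sum and a Crls1 sum of 16.3 CPM. White adipocyte genes summed to 529 to 2921 CPM in the control and 45.1 to 603 CPM in the HFD mice, with 5 of 6 higher in the control group. Schwann cell genes were higher in the control group for 4 of 4, at 43.0 to 155 CPM against 29.5 to 35.8 CPM without overlap, as were 4 of 4 of endothelium, 5 of 5 of blood, and 4 of 4 of macrophages, whose sums overlapped. Control mouse 3 also had the lowest sum of skeletal muscle genes, 197100 CPM. In muscle samples, fewer cells of a type and less RNA per cell cannot be told apart, and the part of these cell types in the Crls1 difference was not tested.

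Crls1-203 was counted in every control mouse, at brown adipocyte gene sums of 26.8 to 869 CPM. It was also counted in HFD + metformin mouse 3, at 205 CPM, and HFD + RSV mouse 3, at 22.3 CPM. At lower sums it was found in some mice and not in most. HFD + RSV mouse 2 had a share of 25.3% at 2.05 CPM of these genes, and HFD + metformin mouse 4 had 22.5% at 1.22 CPM. The HFD mice, at 1.19 to 3.57 CPM, had no Crls1-203 count. HFD + RSV mice 1 and 4, at 2.515 and 2.59 CPM, had none. HFD + metformin mice 1 and 2, at 7.94 and 2.47 CPM, had none either. A relation of this share to the brown adipocyte genes was not tested.

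**Figure D4:**
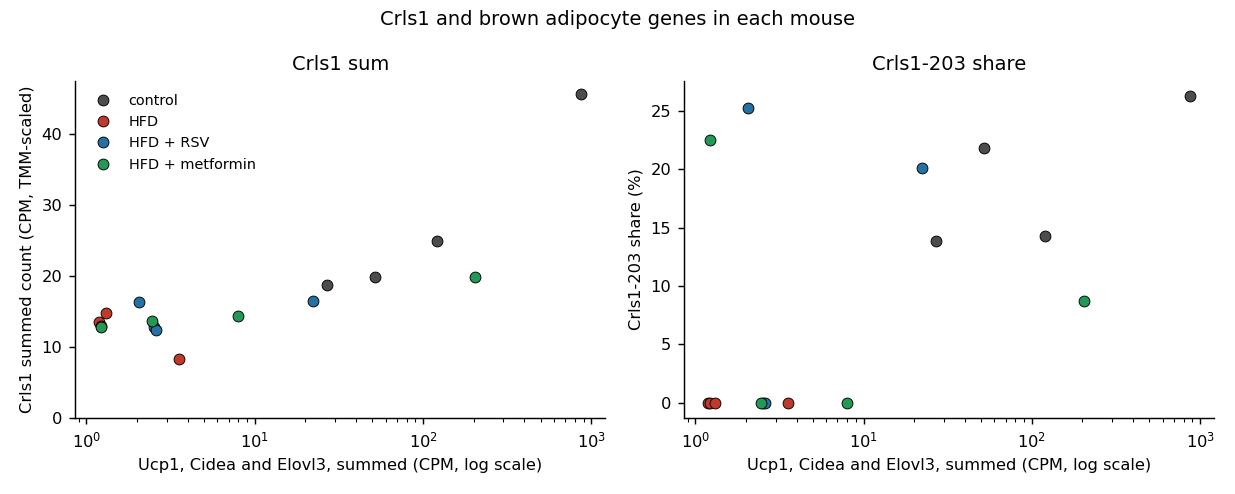
Summed Crls1 CPM (left) and Crls1-203 share in percent (right) in each of the 16 mice against the summed CPM of Ucp1, Cidea, and Elovl3 on a log scale, colored by group. Control mouse 3 is at the upper right of both panels with 869 CPM of brown adipocyte genes, and 2 treated mice with 1.22 and 2.05 CPM have Crls1-203 shares above 20%. The other mice at or below 7.94 CPM have a Crls1-203 share of 0.

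The summed Telo2 counts were higher with HFD than in control mice, without passing the test. The CPM were 9.04, 8.75, 9.58, and 10.1 in the control mice and 10.8, 11.6, 12.2, and 10.5 in the HFD mice, which do not overlap. With total-count scaling in place of TMM the CPM overlapped, at 7.42 to 9.48 in the control and 8.65 to 9.94 in the HFD mice, and the log2FC was 0.12 (edgeR adjusted p = 0.567). With TMM the means were 9.37 ± 0.592 and 11.3 ± 0.804 (SD, n = 4), with a log2FC of 0.27 (SE 0.089, edgeR adjusted p = 0.0969, exact two-sided permutation p = 0.0286). The summed FPKM, which divides each count by transcript length and has no TMM factor, was 4.03 ± 0.683 in the control and 4.06 ± 0.181 in the HFD group. HFD + RSV, at 10.6 ± 0.962 CPM, and HFD + metformin, at 10.2 ± 0.552 CPM, lay between, and their log2FC against HFD of -0.09 (SE 0.089) and -0.14 (SE 0.089) had edgeR adjusted p-values of 0.9995 and 0.670.

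The summed Tmem175 counts passed the test in none of the 6 comparisons. Its CPM were 10.1 ± 0.856 in the control, 10.8 ± 0.218 in the HFD, 11.1 ± 1.68 in the HFD + RSV, and 10.8 ± 0.401 in the HFD + metformin group (SD, n = 4). The log2FC of HFD against control was 0.10 (SE 0.101, edgeR adjusted p = 0.586). With total-count scaling the sign turned (-0.05), while the distance from the median of all genes was 0.11 in place of 0.12. In the other comparisons the edgeR adjusted p-values were 0.538 to 0.9995.

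**Figure D5:**
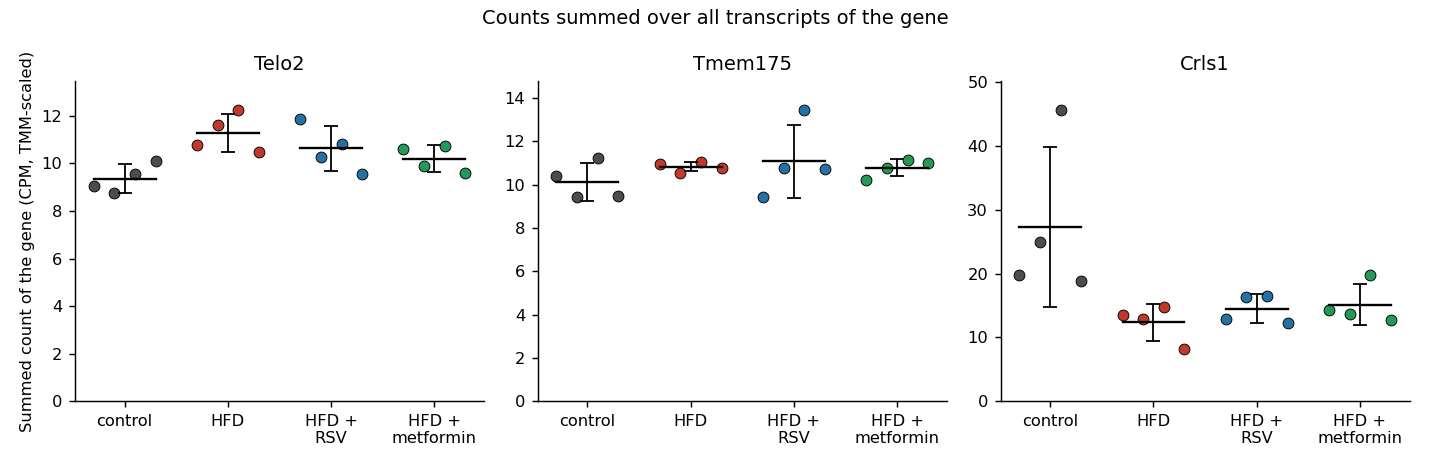
Summed counts of the 3 genes as CPM with TMM-scaled library sizes, 1 point for each of the 16 mice, with lines at the group means and bars of 1 SD. All 4 control mice lie above all 4 HFD mice for Crls1 and below them for Telo2, which overlaps with total-count scaling, and the groups overlap for Tmem175.

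The partners of Telo2 were examined in a list of 18 genes, Telo2 included, of the Tel2-Tti1-Tti2 complex, the kinases it serves, and their chaperones. All 18 were tested, and in HFD against control 1 rose and none fell by edgeR, beside 1.32% of all genes higher. It was Ruvbl2, an ATPase of the chaperone complex that works with Telo2, at 16.6, 15.2, 17.2, and 14.0 CPM in the control and 19.6, 20.9, 19.2, and 22.1 CPM in the HFD mice, without overlap. Its log2FC was 0.38 (SE 0.081, edgeR adjusted p = 0.0362), and the call was lost when any one of these mice other than control mouse 1 was left out (adjusted p of 0.0582 to 0.0974) and with total-count scaling (0.23, adjusted p = 0.172). The complex members Tti1 (log2FC -0.11, adjusted p = 0.767) and Tti2 (-0.05, adjusted p = 0.792) and the kinase Mtor (-0.18, adjusted p = 0.265) did not pass. DESeq2, which called 1544 of 15364 genes, called Ruvbl2 higher (log2FC 0.38, adjusted p = 0.000809) and the kinase Smg1 lower (-0.19, adjusted p = 0.0367). Smg1 did not pass in edgeR (-0.20, adjusted p = 0.139). The median log2FC of the list was 0.07, beside -0.02 for all genes.

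The lysosomal list held 20 genes of ion channels, membrane proteins, and hydrolases, Tmem175 included, all of them tested. In HFD against control 2 fell and none rose by edgeR, beside 1.11% of all genes lower. Lamp2, a structural protein of the lysosomal membrane, was at 167, 188, 220, and 171 CPM in the control and 138, 142, 150, and 122 CPM in the HFD mice (log2FC -0.44, SE 0.105, edgeR adjusted p = 0.0471). Atp6v1h, a subunit of the proton pump that acidifies lysosomes, was at 39.4, 44.8, 57.9, and 43.7 CPM in the control and 31.1, 29.2, 30.6, and 35.5 CPM in the HFD mice (log2FC -0.56, SE 0.137, edgeR adjusted p = 0.0478). Neither gene overlapped between the groups. Each call was lost in 12 of the 16 refits that left out 1 mouse, those without control mouse 2, 3, or 4, any HFD or HFD + RSV mouse, or HFD + metformin mouse 1, with the highest adjusted p without control mouse 3 (0.136 and 0.152). Another subunit of the same pump, Atp6v0a1, had a mean of 58.8 ± 5.54 CPM in the control and 76.0 ± 3.78 CPM in the HFD group (SD, n = 4), with a log2FC of 0.37 (SE 0.096, edgeR adjusted p = 0.0556). DESeq2 called it higher (adjusted p = 0.00677) and Lamp2 and Atp6v1h lower, where it called 1544 of 15364 genes. The other channels did not pass, with a log2FC of 0.03 for the chloride transporter Clcn7 (adjusted p = 0.930), 0.12 for Tpcn1 (adjusted p = 0.400), -0.23 for Tpcn2 (adjusted p = 0.644), and -0.01 for the calcium channel Mcoln1 (adjusted p = 0.982). The list median was 0.01.

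The cardiolipin list held 16 genes of synthesis, remodelling, and transport, all tested. Crls1 itself was the 1 gene called in HFD against control by edgeR, and it was lower, beside 1.11% of all genes lower. The enzymes upstream of it were Tamm41 (log2FC -0.03, edgeR adjusted p = 0.923), Pgs1 (0.18, adjusted p = 0.129), and Ptpmt1 (0.22, adjusted p = 0.365), and none passed. Taz, the tafazzin that remodels cardiolipin, had 0.13 (adjusted p = 0.452). The list median was 0.00, beside -0.02 for all genes.

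In the other 5 comparisons edgeR called 0 genes of the 3 lists. For HFD + RSV against HFD, unadjusted p-values under 0.05 were found for 1 of 18, 0 of 20, and 1 of 16 genes of the Telo2, lysosomal, and cardiolipin lists, beside 4.72% of all genes, and DESeq2 called none. HFD + metformin against HFD had 2, 0, and 1 at that level, beside 8.02% of all genes, again with none by DESeq2. HFD + RSV against control had 4, 4, and 1, beside 15.8% of all genes, and there DESeq2 called Atp6v1h and Crls1 among 2.34% of all genes. HFD + metformin against control had 2, 3, and 1, beside 9.5%, and there DESeq2 called Ruvbl2 among 0.918% of all genes. HFD + RSV against HFD + metformin had 0, 1, and 1, beside 4.68%, with none by DESeq2.

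The lncRNA table, which played no part in the choice of genes, held 1 transcript within the Tmem175 span with enough counts to test. NONMMUT053659.2 is an unspliced lncRNA at chr5:108629844-108632336, over the first exons of Tmem175. It had 40 to 81 counts in the control, 44 to 75 in the HFD, 53 to 62 in the HFD + RSV, and 55 to 89 in the HFD + metformin mice, so the groups overlapped. The log2FC of HFD against control was 0.10 (SE 0.169, edgeR adjusted p = 0.830), beside 1.61% of 17599 lncRNAs called. It was not called in the other comparisons, where 0.0114% were in HFD + RSV against HFD and against control and 0.00568% in HFD + RSV against HFD + metformin. The other 4 lncRNAs that overlap these genes lie at Crls1 and had at most 7 counts in any mouse.

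The transcripts of other genes whose shares ran most like those of the member transcripts were found by Pearson's r over the 16 mice, as a description. For Telo2-201 they were Slc35a1-203 (r = 0.836, shares of 1.3% to 7.2%), Hpn-206 (r = 0.822, 1.3% to 5.8%), and Sypl-206 (r = 0.815, 1.1% to 7.2%). For Tmem175-202 they were Ccnt2-205 (r = 0.867, 2.7% to 5.0%), Gtf2h4-210 (r = 0.866, 1.2% to 4.0%), and Swap70-203 (r = 0.850, 4.4% to 15.4%). For Crls1-201 they were Zfp37-201 (r = 0.877, 24.4% to 100%), Uap1l1-201 (r = 0.871, 72.0% to 87.5%), and Fam98a-201 (r = 0.857, 93.4% to 96.8%). The shares named for Telo2-201 and Tmem175-202 moved over a narrower range than the shares of these 2. The points share their libraries, and the values are the largest of 45196 transcripts.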

How the data were processed

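RNA of skeletal muscle from 16 mice was sequenced after removal of ribosomal RNA, 1 library per mouse. The authors deposited expected counts per transcript for mRNAs and lncRNAs, estimated with StringTie according to the study, and the submitters' processing notes also name fastp, HISAT2, and GRCm38. The authors also deposited FPKM values, used here for levels per length and for shares of the summed FPKM. StringTie divides reads that overlapping transcripts share. In the mRNA table, 4 transcripts split over several lines were joined, giving 82388.

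Counts were summed per gene name and tested with edgeR 4.0.16 in R 4.3.3, in 1 quasi-likelihood fit (robust) of all 16 mice with low counts filtered (filterByExpr on the groups, with minimums of 10 counts and of 15 in total), TMM, and Benjamini-Hochberg adjustment over 15364 genes. The lncRNA table was fitted in the same way. Marker sums are CPM without a TMM factor. On simulated data for HFD against control with 200 changed genes of 15364, 60% of those at a log2FC of 1 and 87% at a log2FC of 2 were recovered. In the same data 8 unchanged genes were called. Differences as small as those of the Telo2 and Tmem175 sums were not simulated. The common biological coefficient of variation was 0.261 for genes, and limits from a count of 0 (3 counts) cover counting error only. The labels do not say whether mice shared cages or litters.

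Transcript shares were described and not tested. The genes, lists, and tests were chosen with earlier results of these data known. Described in full were transcripts with a mean share of at least 5% or among the 2 of a gene whose group means differed most. Named from the lists were genes called in any comparison plus Tti1, Tti2, Mtor, Pgs1, Ptpmt1, Tamm41, Taz, Clcn7, Tpcn1, Tpcn2, and Mcoln1, and as most alike the 3 transcripts of other genes with the largest r. Sequences and exons came from GENCODE M21. Alternatives were DESeq2 1.42.0, its size factors, no filter, total-count scaling, 12 mice, FPKM shares, other minimums, and each mouse left out.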

Additional observations from a re-analysis of the deposited data

Results flagged for a closer look

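In 5 of 72 groups of 4 mice, 1 mouse stood apart from the other 3 by Dixon's criterion at 95%. Chance gives this in about 1 in 20 groups of independent, normally distributed values. Shares are bounded, often 0, and linked within a gene, so that rate need not hold here. The Crls1-201 share of HFD mouse 4 was 85.6%, below the other HFD mice, and its Crls1-204 share was 3.89% where the other HFD mice had 0. The Telo2-202 share of HFD mouse 1 was 3.21%, and that of HFD + RSV mouse 3 was 15.98%. The Tmem175-204 share of control mouse 4 was 12.1%, above the other control mice.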

How the results depend on the processing

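No paired analysis was possible because the numbers in the mouse labels do not run in parallel over the groups. With shares of the summed FPKM, Telo2-201 moved to 23.7% and Crls1-201 to 87.6% in the HFD group, and Tmem175-201 to 6.38% in the control and 21.9% in the HFD group. On that scale Crls1-201 no longer separated the HFD and control groups. With total-count scaling the log2FC changed sign for Telo2 in HFD + RSV against HFD + metformin (-0.005) and for Tmem175 in HFD against control (-0.053), HFD + metformin against HFD (0.11), and HFD + RSV against HFD + metformin (-0.023), none of them called. Crls1 in HFD against control was not called without a filter (-1.13), and Crls1 in HFD + RSV against control was called by DESeq2 (-0.91).

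Leaving out 1 mouse at a time, the log2FC of Crls1 was -1.28 to -0.78 in HFD against control and -0.13 to 0.10 in HFD + RSV against HFD + metformin. Tmem175 ranged from -0.071 to 0.104 in HFD + RSV against HFD, from -0.02 to 0.02 in HFD + metformin against HFD, and from -0.067 to 0.110 in HFD + RSV against HFD + metformin. NONMMUT053659.2 ranged from -0.172 to 0.009 in HFD + metformin against HFD, from -0.173 to 0.013 in HFD + RSV against control, and from -0.067 to 0.129 in HFD + metformin against control.

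Transcripts with a mean share of at least 5% whose groups did not overlap numbered 1448 for HFD against control, 821 for HFD + RSV against HFD, 888 for HFD + metformin against HFD, 1108 and 887 for these treatments against control, and 788 between them. With 100 summed counts as minimum, those that also differed by 25 points numbered 63, 58, 61, 54, 49, and 56 in the same order, in place of 110, 94, 102, 99, 91, and 95. In HFD against control, the study's criteria (unadjusted p and absolute log2FC above 1) called 0 genes of the Telo2 list and 0 of the lysosomal list, and DESeq2 called 2 of the Telo2 list and 3 of the lysosomal list. DESeq2 called 1 gene of the Telo2 list in HFD + metformin against control and, in HFD + RSV against control, 1 of the lysosomal and 1 of the cardiolipin list. Over all genes, HFD against control gave 1544 calls with DESeq2, 158 without a filter, and 213 with total-count scaling. HFD + RSV against control gave 359 with DESeq2 and 1 with edgeR, and the cause was not tested.

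Counts of 161 to 306 for Telo2 and Tmem175 limit shares under a few percent, and 4 mice a group limit what a difference in the sums can show.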
